A study of Mus musculus with 2 samples.

Results

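The cells described here were 205 barcodes rich in fibroblast collagen transcripts and almost free of Cdkn2a, taken from 2 single-cell RNA libraries of orthotopic mouse pancreatic tumors. They were selected among 36642 barcodes that passed limits on depth, detected genes and mitochondrial transcripts, out of 37971 barcodes in all. Col1a1, Col1a2, Col3a1 and Dcn together had to hold at least 1% of a cell's UMIs, the unique molecular identifiers that mark each captured transcript. Cdkn2a and the sum of Krt8 and Krt18 were each limited to at most 1 UMI, and C1qa, C1qb and C1qc to less than 0.1% of the UMIs. The iIRE library held 118 of these fibroblasts among 18828 cells, against 87 among 17814 cells in the control library. The levels of the genes used in the selection are therefore given as a description and support nothing.

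Tumors were grown in male C57BL/6 mice, 5 to 7 weeks old, by injection of KPC cells into the tail of the pancreas. KPC is an established mouse pancreatic cancer line with mutant Trp53. In the iIRE group the tumor received insufficient irreversible electroporation, electric pulses that leave part of the tumor alive. Tumors of the iIRE group were taken 3 days after the pulses. The control tumors are described as untreated where the sequencing is reported, while the general methods give a sham needle insertion for control mice, and the labels do not say which applied here. Each group was 1 library, and how many mice entered each is not given in the sources used here, so no difference between the libraries has a replicate check and no p-value is given. The intervals given (95%, exact) reflect the counting of UMIs or cells and nothing else, and they are too narrow because UMIs of a gene bunch within cells.

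Cancer-associated fibroblasts build the collagen-rich stroma for which pancreatic cancer is known. They are commonly described as contractile myofibroblastic cells, cytokine-producing inflammatory cells and antigen-presenting cells that carry MHC class II, and the borders between these states are gradual. Pancreatic cancer cells that have lost epithelial features can transcribe many of the same matrix genes, so collagen alone does not separate host fibroblasts from mesenchymal-type tumor cells. Cdkn2a encodes p16Ink4a and p19Arf, which restrain the cell cycle, and cultured cells without working p53 often accumulate its transcript. In mm10 it lies at chr4:89274471-89294653.

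Depth set how much could be read from each cell. The fibroblasts held 1348197 UMIs in the iIRE library and 892420 in the control library, with medians of 10783.5 and 10295 UMIs per cell. The mesenchymal-type tumor cells, defined by at least 3 UMIs of Cdkn2a and at least 10 of Lum, Serpinf1 and Mfap4, numbered 1179 and 1215 in the iIRE and control libraries, with medians of 19251 and 22207 UMIs. The libraries shared 458 barcode sequences. Of the fibroblasts, 2 had a barcode that was also in the other library, and 0 barcodes were fibroblasts in both.

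Whether these cells belonged to the host was checked with 4 Y-linked genes, which played no part in the selection: Ddx3y, Uty, Eif2s3y and Kdm5d, broadly expressed male-specific genes. Levels are in CPM, a gene's UMIs scaled to 1000000 UMIs per population and library. Together the 4 genes reached 112 CPM (94.9 to 131) in iIRE fibroblasts and 98.6 CPM (79.1 to 122) in control fibroblasts. Mesenchymal-type tumor cells held 2.58 and 2.37 CPM in the iIRE and control libraries, so the fibroblasts were 43.4-fold (32.2 to 59.1) and 41.7-fold (30.1 to 58.0) higher. Macrophages, which come from the host, held 115 and 118 CPM. The fibroblasts thus stood at the level of host macrophages and far from the tumor cells in either library. When every cell was thinned to 3000 UMIs, Y-linked UMIs were found in 23.2% of iIRE and 18.9% of control fibroblasts, against 0.594% and 0.0823% of mesenchymal-type tumor cells, after 10 and 13 shallower fibroblasts and 1 and 0 tumor cells were left out. Without thinning, the shares over the same cells were 64.8% and 56.8%, against 2.97% and 3.46%. Xist had 0 UMIs in the fibroblasts of both libraries. Xist and Tsix together stood at 0.0403 CPM in iIRE and 0 CPM in control mesenchymal-type tumor cells, so Xist does not separate the populations.

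**Figure D1:**
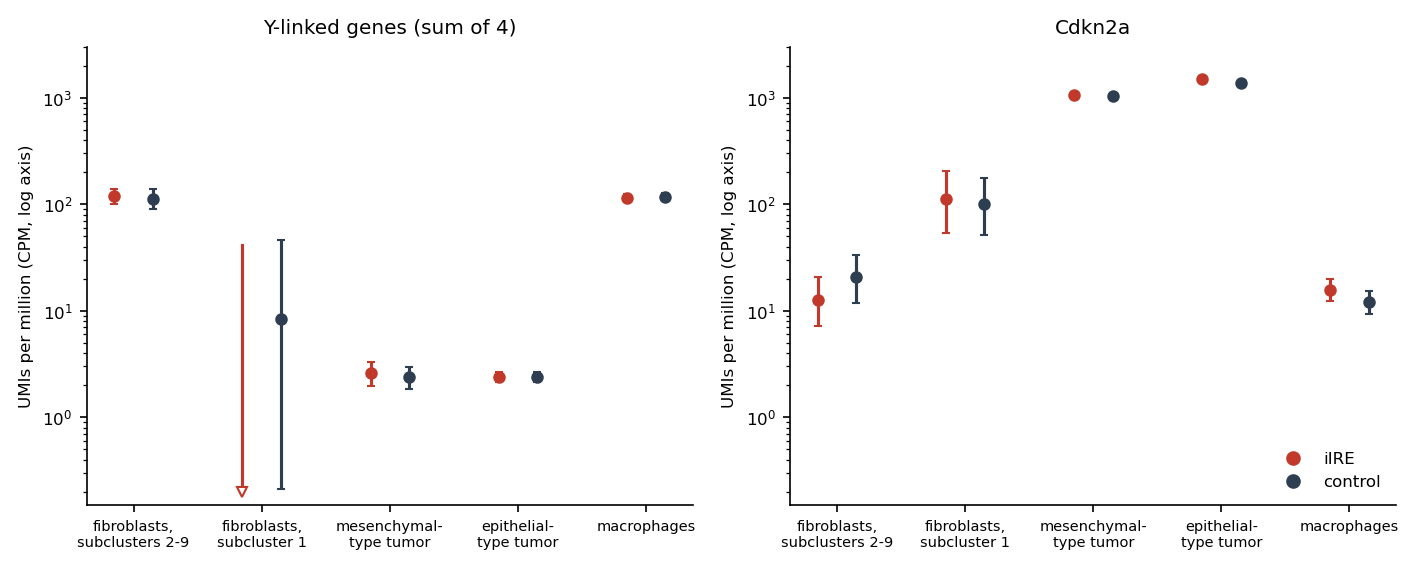
Summed CPM of 4 Y-linked genes (left) and CPM of Cdkn2a (right), on log axes, in fibroblasts with and without subcluster 1 separated, 2 tumor cell types and macrophages, for the iIRE (red) and control (dark) libraries. Points are levels, bars are 95% exact Poisson intervals, and the open triangle at the foot marks 0 UMIs with its upper limit of 41.1 CPM. Fibroblasts outside subcluster 1 stood at 120 and 113 CPM of Y-linked genes, beside 115 and 118 CPM in macrophages.

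The host label did not hold for all members. Clustering of the 205 cells, with the Y-linked genes and the genes of the selection held out, gave 9 subclusters. In subcluster 1, 1 of 40 cells held a Y-linked UMI, a level of 4.78 CPM (0.121 to 26.6), while the other 8 subclusters ranged between 95.4 and 177 CPM. Its cells were shallow, with a median of 3934.5 UMIs. It held 15 of the 118 iIRE members, 12.7% (7.29 to 20.1), and 25 of the 87 control members, 28.7% (19.5 to 39.4). The genes that led it were Sprr2k, Mest, Grem1, Edil3, Adgrl3, Pla2g7, Pvt1 and Sox9. Spp1, the secreted phosphoprotein osteopontin, stood at 7119 CPM there, against 9999 and 8401 CPM in the mesenchymal-type tumor cells of the iIRE and control libraries. The Y-linked level therefore goes against the host label for subcluster 1, and results that move without it are given both ways. Outside it, 165 cells remained, 103 in the iIRE library and 62 in the control library.

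The Y-linked level also varied near the limits of the selection. Members with 0 UMIs of Cdkn2a, 92 iIRE and 59 control cells, held 129 and 109 CPM of Y-linked genes, and members with 1 UMI, 26 and 28 cells, held 49.7 and 77.9 CPM. Just outside, 17 iIRE and 16 control cells with 2 UMIs of Cdkn2a held 37.3 and 95.4 CPM. Members just inside the collagen limit, at 1 to 1.5% of UMIs, were 8 and 12 cells with 27.4 and 14.9 CPM, and 30 and 33 cells at 0.5 to 1% were left out with 64.5 and 71.8 CPM. Another 2 iIRE and 10 control cells were left out with 2 keratin UMIs, and 0 cells of either library lay between 0.1 and 0.2% of C1q. Cells on either side of the Cdkn2a, collagen and keratin limits thus held Y-linked UMIs.

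Transcripts of other cell types were few in most members. At least 3 UMIs of markers of other classes were carried by 13 iIRE fibroblasts, 11.0%, and 17 control fibroblasts, 19.5%. These classes were myeloid cells, neutrophils, lymphocytes, endothelium and tumor epithelium, whose markers include Krt19, also a gene of mesothelium. Summed neutrophil markers stood at 0.742 CPM in iIRE and 97.5 CPM in control fibroblasts, lymphocyte markers at 1.48 and 51.6 CPM, and myeloid markers at 76.4 and 142 CPM. The control neutrophil and lymphocyte sums rested on few cells. S100a9 was found in 2 control fibroblasts, with 34 UMIs in 1, and Nkg7 in 2, with 19 UMIs in 1. In macrophages the myeloid list reached 23540 and 24032 CPM. The defining markers Rgs5 of pericytes, Sox10 of Schwann cells and Cdh5 and Cldn5 of endothelium were at 0 UMIs, but their lists were not. The 18 pericyte and smooth muscle genes summed to 697 CPM in iIRE and 669 CPM in control fibroblasts, against 286 and 289 CPM in mesenchymal-type tumor cells, with Des and Ndufa4l2 at least 4-fold higher in the fibroblasts. The 12 endothelial markers summed to 63.8 and 65.0 CPM, with Kdr in 14 iIRE and 7 control fibroblasts and Flt1 in 7 and 9. No doublet caller was run on so few cells.

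The fibroblasts were 0.627% (0.519 to 0.750) of the cells in the iIRE library and 0.488% (0.391 to 0.602) in the control library, a ratio of 1.28 (0.965 to 1.71) whose interval includes 1. Without subcluster 1 the shares were 0.547% (0.447 to 0.663) and 0.348% (0.267 to 0.446), a ratio of 1.57 (1.14 to 2.19). Shares of cells depend on how each tumor was dissociated and on every other cell type, and these parts cannot be told apart with 1 library a group.

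Type I collagen is usually built from 2 chains of the Col1a1 product and 1 of the Col1a2 product. Both transcripts entered the sum used in the selection and the tumor cells were not selected on collagen, so the balance of the chains is given as a description. Fibroblasts held 2.02 (1.98 to 2.07) Col1a1 UMIs per Col1a2 UMI in the iIRE library and 2.23 (2.17 to 2.30) in the control library. Mesenchymal-type tumor cells held 6.91 and 6.30, and epithelial-type tumor cells, with at least 3 UMIs of Cdkn2a and 10 of Krt8 and Krt18, held 19.2 and 17.1. Per Col1a1 UMI, Col1a2 was thus most abundant in the fibroblasts. Col1a2 stood at 8583 CPM in iIRE and 7702 CPM in control fibroblasts, against 960 and 1188 CPM in mesenchymal-type tumor cells, while Col1a1 stood at 17336 and 17208 CPM, against 6629 and 7487 CPM. The same pattern was present cell by cell. Among cells with at least 50 UMIs of the pair, the median share of Col1a1 was 66.6% in 103 iIRE and 68.9% in 66 control fibroblasts, against 94.9% and 90.6% in mesenchymal-type tumor cells. Subcluster 1 had 10.2 (8.55 to 12.3) and 8.60 (7.38 to 10.1) Col1a1 UMIs per Col1a2 UMI, against 1.92 and 2.06 in the rest.

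Type V collagen, which regulates the diameter of collagen fibrils, showed a wider gap. It was not in the selection, but a gene that goes along with the selected collagens would differ by construction. Fibroblasts held 0.840 Col5a1 UMIs per Col5a2 UMI in the iIRE library (0.793 to 0.890) and 0.597 in the control library (0.559 to 0.639), against 24.0 and 23.0 in mesenchymal-type tumor cells and 75.0 and 74.4 in epithelial-type tumor cells. The difference lay in Col5a2, at chr1:45374321-45503282 in mm10, more than in Col5a1. Col5a2 reached 1885 and 2608 CPM in iIRE and control fibroblasts, against 35.8 and 46.2 CPM in mesenchymal-type tumor cells, and Col5a1 reached 1583 and 1558 CPM, against 857 and 1065 CPM. At 3000 UMIs per cell, 86.1% of iIRE and 78.4% of control fibroblasts held a Col5a2 UMI, against 4.58% and 5.68% of mesenchymal-type tumor cells. Unthinned, these shares were 89.8% and 79.7%, against 14.9% and 17.9%. Subcluster 1 had 253 Col5a1 UMIs and 1 Col5a2 UMI in the iIRE library and 313 and 0 in the control library, values that describe it only, since these genes were open to the clustering. Not every pair differed in this way. Col6a1 per Col6a2 was 0.798 and 0.788 in fibroblasts, against 0.855 and 0.864 in mesenchymal-type tumor cells, and Col1a1 per Col3a1 was 1.13 and 1.11, against 1.37 and 1.44.

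**Figure D2:**
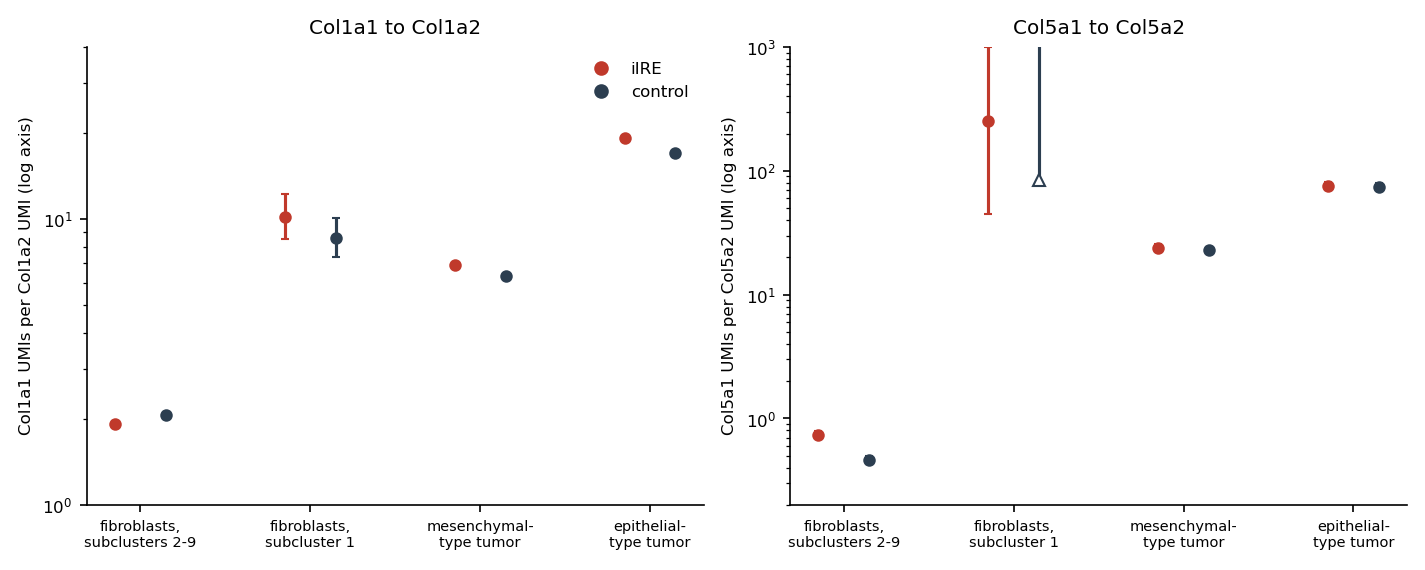
UMIs of Col1a1 per UMI of Col1a2 (left) and of Col5a1 per UMI of Col5a2 (right), on log axes, in fibroblasts outside and inside subcluster 1 and in 2 tumor cell types, for the iIRE (red) and control (dark) libraries. Bars are 95% exact intervals, cut at the top of the axis, and the open triangle is a lower limit where Col5a2 had 0 UMIs. Fibroblasts outside subcluster 1 lie lowest in both panels, at 1.92 and 2.06 on the left.

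Beyond the collagens, fibroblasts and mesenchymal-type tumor cells were compared within each library on CPM with 10 CPM added. Of 12577 genes, 255 (2.03%) were at least 4-fold higher in the fibroblasts in both libraries and 34 (0.27%) at least 4-fold lower, and the median gene stood at a log2 ratio of -0.11 in each. Both libraries enter this count, but a selection on collagen and Cdkn2a separated the populations, so genes that go along with those would differ by construction. Subcluster 1 diluted the contrast: without it 286 genes were higher and 77 lower.

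Periostin, the matricellular protein encoded by Postn, stood at 2506 CPM in iIRE and 4131 CPM in control fibroblasts, against 36.6 and 44.4 CPM in the mesenchymal-type tumor cells, folds of 68.5 (63.6 to 73.7) and 93.0 (87.2 to 99.1). It had 0 UMIs in subclusters 1 and 5 and was highest in subcluster 2, at 9475 CPM. Elastin, Eln, stood at 395 and 1025 CPM, against 5.85 and 16.9 CPM. Lox, which cross-links collagen and elastin, stood at 639 and 479 CPM, against 10.8 and 13.5 CPM. Mmp2, a gelatinase, stood at 931 and 1446 CPM, against 13.4 and 19.0 CPM. These matrix genes were not in the selection. It set a collagen minimum for the fibroblasts only, so matrix genes that go along with collagen would be higher by construction. Of 23 matricellular genes 8 were at least 4-fold higher, of 23 collagen processing enzymes 4 (Bmp1, Adamts2, Lox and Loxl1), of 16 elastic fibre genes 4, and of 16 metalloproteinases and inhibitors 4. Of 18 myofibroblastic genes, 6 were. Over all genes the share at least 4-fold higher was 2.03%.

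Of 22 complement and coagulation genes measured, 10 were at least 4-fold higher, among them C1s1, C2, C3, C4b and Serping1, and 0 lower. Over all genes 2.03% were higher and 0.27% lower. The list medians were log2 1.69 in the iIRE and 2.17 in the control library. C3, the central component, stood at 846 CPM in iIRE and 782 CPM in control fibroblasts, against 4.92 and 7.58 CPM in the tumor cells, folds of 172 (143 to 209) and 103 (88.6 to 121). Serping1, the C1 inhibitor, stood at 1053 and 1240 CPM, against 11.7 and 16.8 CPM. A component of complement and an inhibitor were thus both high. C3 was concentrated in subclusters 3, 5 and 7, at 2082, 2504 and 1261 CPM, and stood at 28.8 CPM in subcluster 2.

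Secreted signals differed as well. Of 29 chemokine and cytokine genes, 6 were at least 4-fold higher, beside 2.03% of all genes: Ccl2, Ccl7, Ccl11, Cxcl10, Cxcl14 and Il6. Ccl2, which attracts monocytes, stood at 1410 CPM in iIRE and 1485 CPM in control fibroblasts, against 204 and 197 CPM in the tumor cells. Il6 stood at 181 and 194 CPM, against 6.98 and 7.58 CPM. Cxcl1, which attracts neutrophils, was not among them, with 1320 and 1219 CPM in fibroblasts and 1215 and 1229 CPM in tumor cells. Igf1, the insulin-like growth factor, stood at 537 and 852 CPM, against 9.72 and 10.8 CPM. Of 22 WNT and Hedgehog genes, 7 were higher, the ligands Wnt2, Wnt4 and Wnt11 and the WNT modulators Sfrp1, Sfrp2, Dkk2 and Dkk3. Wnt4 stood at 315 and 288 CPM, against 10.7 and 9.94 CPM.

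Other lists held fewer such genes. Of 18 stellate cell and pancreatic mesenchyme genes 2 were at least 4-fold higher, and of 19 immune ligand and checkpoint genes 3. The share over all genes was 2.03%. Wt1, a transcription factor of mesothelium and stellate cells, stood at 130 CPM in iIRE and 72.8 CPM in control fibroblasts, against 1.05 and 0.857 CPM in tumor cells. Barx1, a homeobox gene of foregut mesenchyme, stood at 132 and 70.6 CPM, log2 3.68 and 2.85 above the tumor cells. The MHC class I genes H2-K1 and H2-D1 stood at 362 and 318 CPM in iIRE fibroblasts and 333 and 285 CPM in control fibroblasts, against 24.6 and 31.6 CPM, and 31.1 and 31.9 CPM, in the tumor cells of the same libraries. Cdkn1a, the p53 target p21, stood at 199 and 207 CPM, against 33.6 and 41.2 CPM, a 5.91-fold (5.13 to 6.79) and 5.03-fold (4.29 to 5.88) difference. Other named genes higher in the fibroblasts were Cxcl14, Itm2a, Spon1, Cpxm1, Ptgis, Mfap5, Colec12 and Aldh1a2, with log2 ratios between 4.53 for Aldh1a2 and 5.72 for Itm2a in the iIRE library. These genes cover retinoic acid and prostacyclin synthesis (Aldh1a2 and Ptgis) and microfibrils (Mfap5).

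Genes lower in the fibroblasts were fewer and less far apart. Hmga2, a chromatin protein of embryonic and tumor cells, stood at 17.1 CPM in iIRE and 12.3 CPM in control fibroblasts, against 203 and 208 CPM in the tumor cells. Sox9, a ductal transcription factor, stood at 57.9 and 62.8 CPM, against 484 and 487 CPM. Phgdh, the first enzyme of serine synthesis, stood at 33.4 and 30.3 CPM, against 319 and 326 CPM, and Ccnd1, cyclin D1, at 26.7 and 20.2 CPM, against 202 and 202 CPM. Much of what remained of Sox9 was in subcluster 1, at 425 CPM, and without that subcluster the log2 ratio of Sox9 was -3.87 in the iIRE and -4.08 in the control library, against -2.86 and -2.77 with it. Hmga2, Phgdh and Ccnd1 were also above their fibroblast levels in subcluster 1, at 114.7, 95.55 and 90.78 CPM. Of 31 cell cycle genes, 2 were at least 4-fold lower and 0 higher, beside 0.27% and 2.03% of all genes. Their medians were log2 -1.29 and -1.54.

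**Figure D3:**
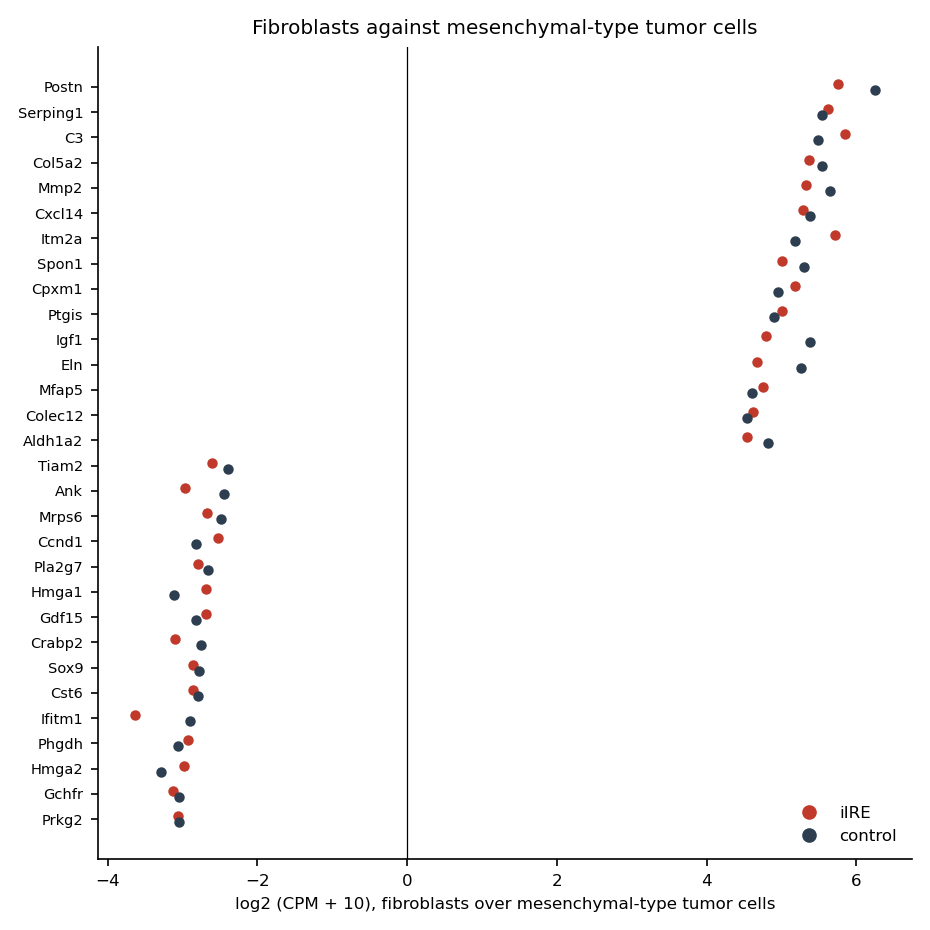
Log2 ratio of CPM + 10 in fibroblasts over mesenchymal-type tumor cells for the 15 genes named on each side, in the iIRE (red) and control (dark) libraries. Points are single ratios with no replicate error. The higher genes lie between 4.53 (Aldh1a2) and 6.25 (Postn), and the lower genes at -2.39 (Tiam2) or below.

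The 205 cells were not uniform, and their subclusters are described by the genes that led them, which are not results of a comparison. Subcluster 2, 13 iIRE and 23 control cells, was led by Crabp1, a retinoic acid-binding protein, at 4066 CPM against 182 CPM in the other cells, and by Col7a1, F5, Id1 and Masp1. It also held the highest Thy1 level, 1325 CPM. Subcluster 3, 24 iIRE and 6 control cells, had markers of 2 fibroblast kinds among its leading 50 genes. These were 5 of 9 inflammatory CAF markers (Ly6c1, Clec3b, C3, Cxcl12 and Has1) and 3 of 6 adventitial fibroblast markers (Ly6a, Pi16 and Dpt). The inflammatory CAF markers Il6, Cxcl1, Pdgfra and Ccl2 were not among them, so it is given neither name. Ly6a stood at 3448 CPM against 478 CPM in the other cells. Interferon-inducible genes were among its leading genes too, such as Ifi27l2a in 29, Slfn5 in 22 and Cxcl9 in only 5 of its 30 cells. Subcluster 4, 12 and 10 cells, had Thbs4, A2m, Nppc and Notum among its leading genes.

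Subcluster 5, 13 iIRE and 9 control cells, was antigen-presenting CAF-like, with 6 of 6 such markers among its leading genes (Cd74, Saa3, H2-Eb1, Slpi, H2-Aa and H2-Ab1). Cd74, the invariant chain of MHC class II, stood at 2087 CPM, against 10.6 CPM in the other cells. It had the lowest Col1a1 level, 4246 CPM, and 3 Lum UMIs in all. Msln, Upk3b and Krt19, genes of mesothelium, held 16, 24 and 59 UMIs there, and Wt1 was found in 20 of 22 cells. At least 3 UMIs of other classes were carried by 7 of its 13 iIRE cells and 7 of its 9 control cells. Krt19 was also counted among those markers, as a gene of tumor epithelium. The count therefore does not separate carried-over transcripts from the cells' own. The part of other classes in its class II level was not tested. Its Y-linked level was 125 CPM (86.2 to 176).

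Subcluster 6, 17 iIRE and 3 control cells, was led by Hmox1, heme oxygenase, at 452 CPM, with Hilpda and Cdkn1a among its leading genes. Subcluster 7, 10 and 6 cells, was led by Cx3cr1, Clu, Calca, Cryab and Aldh1a3, but Cx3cr1 was found in only 2 of its 16 cells. Subcluster 8, 8 and 5 cells, was led by the cycling genes Ube2c, Birc5 and Top2a, and Acta2 stood there at 3004 CPM. Subcluster 9 was 6 iIRE cells led by the nuclear RNA Neat1, at a median of 4198 UMIs. Cell numbers by library are given as counts only, since the leading genes of several subclusters also differed between the libraries.

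**Figure D4:**
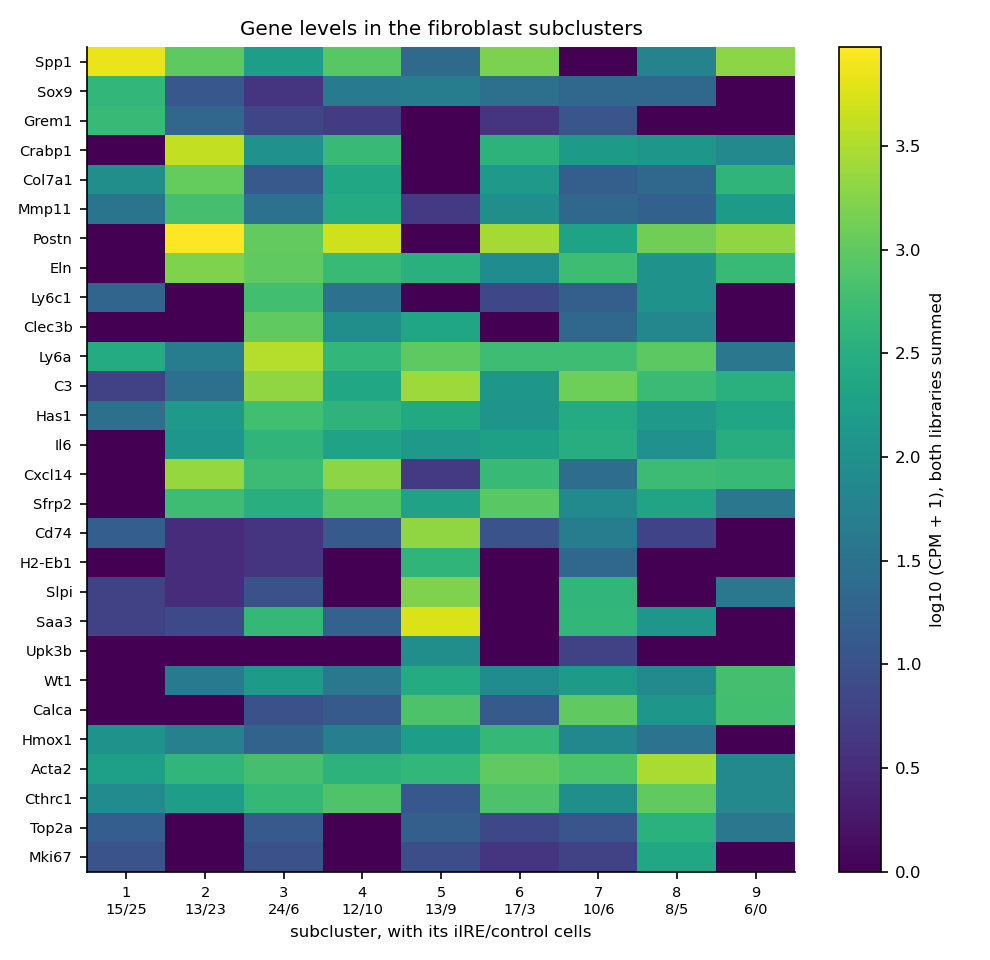
Levels of 28 genes, as log10 of CPM + 1 over both libraries, in the 9 fibroblast subclusters, with the numbers of iIRE and control cells below each. The genes were picked for display after their values were seen. Postn is brightest in subcluster 2 (9475 CPM), Cd74 in subcluster 5 (2087 CPM) and Spp1 in subcluster 1 (7119 CPM).

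The study asked what insufficient electroporation does to the surviving tumor and its surroundings, so the fibroblasts of both libraries were compared gene by gene. Of 5801 genes with at least 50 UMIs, 253 (4.36%) were more than 1.5-fold higher in iIRE than in control fibroblasts and 246 (4.24%) more than 1.5-fold lower, and the median log2 ratio was 0.01. Of these, 6 higher and 8 lower genes passed the same fold in the same direction in mesenchymal-type tumor cells. The share of all genes that passed it there is not given, so nothing is read from this overlap. More than 50% of the UMIs came from 1 cell for 1 of the higher and 6 of the lower genes. Without subcluster 1, 284 genes were higher, 212 of them shared, and 294 were lower, 204 of them shared.

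Acta2, smooth muscle actin and the usual mark of myofibroblasts, lies at chr19:34241090-34255590 in mm10. It was higher in the iIRE library and had 1463 UMIs in 59 of 118 iIRE fibroblasts, against 210 UMIs in 28 of 87 control fibroblasts. That was 1085 CPM against 235 CPM, a 4.61-fold (3.99 to 5.36) difference. It did not rest on subcluster 1 (log2 2.22 without it, 2.16 with it), and over the alternatives it ranged between log2 1.68, with each cell weighted equally, and 2.95, without the members that carried other classes' UMIs. In mesenchymal-type tumor cells the same ratio was -0.54. Within subclusters, Acta2 stood at 1050 CPM in iIRE and 127 CPM in control cells of subcluster 2 and at 627 and 10.2 CPM in subcluster 4. In subcluster 5 it stood at 337 and 558 CPM, so not every subcluster went the same way. The cycling subcluster 8 held 3004 CPM, against 539 CPM in the other cells, with UMIs in 8 of its 13 cells. Its level by library is not given here. Some rare smooth muscle transcripts were found in more iIRE than control fibroblasts. Actg2 was found in 7 and 0, Cnn1 in 5 and 0, Myh11 in 4 and 1, and Lmod1 in 3 and 0. Gucy1a1 went the other way, in 1 and 4. Of 4 measured genes of the pericyte and smooth muscle list, Kcnj8, a pericyte channel gene, was called higher, in 23 and 8 cells. Pdgfrb of the same list was called lower. All 18 genes of the list summed to 697 CPM in iIRE and 669 CPM in control fibroblasts. The part of smooth muscle or pericyte transcripts in the Acta2 difference was not tested.

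The myofibroblastic list divided. Of 16 measured, 4 were higher (Acta2, Tagln, Myl9 and Tpm2, all parts of the contractile apparatus) and 4 lower (Thy1, Igfbp3, Col12a1 and Postn). Over all genes 4.36% were higher and 4.24% lower. The list median was log2 -0.03. Without subcluster 1, 3 of the 16 were past 1.5-fold higher and 5 lower. Tagln stood at 989 CPM in iIRE and 640 CPM in control fibroblasts, Tpm2 at 460 and 234 CPM, and Myl9 at 142 and 70.6 CPM. Cthrc1, a secreted protein of injured and tumor stroma, stood at 527 and 183 CPM, 2.89-fold (2.43 to 3.44), with UMIs in 64 iIRE and 36 control cells. Adam12 stood at 152 and 60.5 CPM. Thy1, a surface glycoprotein of fibroblasts, stood at 375 CPM in iIRE and 828 CPM in control fibroblasts.

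Of 8 fibrillar collagen genes 0 passed 1.5-fold in either direction, but Col1a1, Col1a2 and Col3a1 among them had to reach the same minimum in both libraries, so nothing is read from these. Matrix lists differed among themselves, beside 4.36% higher and 4.24% lower over all genes. Of 22 matricellular genes 9 were lower and 1 higher, with a median of log2 -0.40, and of 13 other collagens 5 were lower and 0 higher, with a median of -0.52. Of 20 collagen processing enzymes 0 passed in either direction, of 17 elastic fibre genes 1 was lower, of 8 small leucine-rich proteoglycans 1 was higher and 1 lower, and of 13 metalloproteinases and inhibitors 1 was higher and 2 were lower. Without subcluster 1, 7 of the other collagens, 2 elastic fibre genes and 2 proteoglycans were past 1.5-fold lower. In the same cells 2 matricellular genes and 1 fibrillar collagen were past 1.5-fold higher. Eln stood at 395 CPM in iIRE and 1025 CPM in control fibroblasts, 0.386 (0.346 to 0.430) of the control level. Fibronectin, Fn1, stood at 2328 and 4218 CPM, and Col7a1, the anchoring fibril collagen, at 143 and 500 CPM. Sfrp1, a WNT antagonist, stood at 190 and 501 CPM, and Mmp11, stromelysin 3, at 105 and 297 CPM. Crabp1 stood at 437 and 1764 CPM, with UMIs in 39 iIRE and 32 control cells, and Id1, a target of BMP signals, at 17.8 and 132 CPM. Id1 moved to log2 -3.08, against -2.36, when members with 1 UMI of Cdkn2a were left out. Of the 15 genes named as lower, 8 were among the leading 50 genes of subcluster 2 (Col7a1, Cpxm2, Crabp1, Cyp26b1, Frem1, Id1, Lamc3 and Ntrk2), which held 13 iIRE and 23 control cells. Fewer cells of that kind and less RNA per cell cannot be told apart in the summed levels. Within subcluster 2 itself, Crabp1 stood at 2671 CPM in iIRE and 4717 CPM in control cells and Eln at 661 and 2050 CPM.

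Some of the lower genes came from few cells. Sprr2k, a cornified envelope gene, stood at 23.0 CPM in iIRE and 278 CPM in control fibroblasts, log2 -3.13, but at -0.18 without subcluster 1, whose leading gene it was. Spp1 stood at 979 CPM in iIRE and 1609 CPM in control fibroblasts, log2 -0.71, and at 0.84 in the other direction without subcluster 1. Saa3, an acute phase protein, stood at 280 and 1546 CPM, but 300 of 377 iIRE UMIs and 686 of 1380 control UMIs came from 1 cell each, and the log2 ratio was -3.55 without these cells and -0.42 when collagens had to hold at least 2% of UMIs. Slpi, a protease inhibitor, stood at 114 and 400 CPM, log2 -1.72, and at 0.38 under the same collagen limit. Msmo1 and Hmgcs1, enzymes of sterol synthesis, stood at 11.9 and 46.7 CPM in iIRE fibroblasts and at 63.9 and 151 CPM in control fibroblasts. The other lower genes named were Pi16, Sept4 and those of subcluster 2.

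Interferon-stimulated genes were counted in the same way. Of 24 measured, 7 were higher (Ifit1, Ifit3, Isg15, Irf7, Stat2, Oasl2 and Bst2) and 1, Irf1, was lower, beside 4.36% and 4.24% of all genes, and the median of log2 0.29 stood beside 0.27 for the same list in mesenchymal-type tumor cells. Ifit3 stood at 69.0 CPM in iIRE and 19.1 CPM in control fibroblasts, in 24 and 10 cells, 3.62-fold (2.14 to 6.48). Isg15, a ubiquitin-like protein, stood at 524 and 310 CPM, log2 0.74, beside 0.82 in mesenchymal-type tumor cells.

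Antigen-presentation and inflammatory genes were mixed. The class II genes Cd74, H2-Ab1, H2-Aa and H2-Eb1 were all higher, Cd74 at 334 CPM in iIRE and 136 CPM in control fibroblasts, but with UMIs in 18 and 14 cells only. H2-Eb1 stood at 69.7 and 21.3 CPM, 3.28-fold (1.99 to 5.68), in 14 and 7 cells. It too passed the UMI minimum through the iIRE library alone. In the same fibroblasts the summed myeloid markers stood at 76.4 CPM in the iIRE library and 142 CPM in control. The ratio of H2-Eb1 was log2 1.53 without the members that carried other classes' UMIs, beside 1.35 with them. Those members included 7 of the 13 iIRE and 7 of the 9 control cells of subcluster 5. The part of other cell types in the class II levels was not tested. Of 23 inflammatory CAF genes, 4 were higher (Cxcl12, Ly6c1, Clec3b and Ptgs2) and 4 lower (Lif, Ccl11, Pdgfra and Saa3). The shares over all genes were 4.36% higher and 4.24% lower. Ptgs2, the inducible prostaglandin synthase, stood at 249 CPM in iIRE and 108 CPM in control fibroblasts, and Ly6a, the Sca-1 antigen, at 1180 and 551 CPM. Ly6a, Ly6c1, Clec3b, Cxcl12 and Ifit3 were leading genes of subcluster 3, which held 24 iIRE and 6 control cells. More such cells and more RNA per cell in the iIRE library cannot be told apart here either. Within it Ly6a stood at 3686 CPM in iIRE and 2652 CPM in control cells, and Clec3b at 1051 and 842 CPM. Il6 and C3 did not pass 1.5-fold, at log2 -0.09 and 0.11.

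Cell cycle genes were measured in few cells. Of 31, 14 had at least 50 UMIs, and of these 7 were higher in iIRE fibroblasts (8 without subcluster 1) and 0 lower. Over all genes 4.36% were higher and 4.24% lower. Some passed that minimum through the iIRE library alone, such as Top2a, with 71 UMIs there and 11 in control, so the count favors higher genes. Top2a, a topoisomerase of dividing cells, stood at 52.7 CPM in iIRE and 12.3 CPM in control fibroblasts, in 19 and 6 cells, log2 1.49, but at 0.20 when each cell was weighted equally. Calca, the calcitonin and CGRP gene, stood at 276 and 75.1 CPM in 28 and 6 cells, log2 1.75, and at 1.15 in members with 0 UMIs of Cdkn2a. Depdc5, a regulator of mTORC1, had 220 UMIs in iIRE and 24 in control fibroblasts, of which 61 were in 1 iIRE cell. Plau, the urokinase gene, stood at 89.0 and 29.1 CPM, and Hilpda, a hypoxia-inducible lipid droplet protein, at 199.5 and 75.1 CPM. Of 26 hypoxia and glycolysis genes 1 was higher, Car9, beside 4.36% of all genes, with a median of log2 0.21. Without subcluster 1, 5 of the 26 were past 1.5-fold higher and 0 lower, with a median of log2 0.265. Over all genes 284 of 5378 were then higher. The other higher genes named were Ctla2a, Plce1, Aoc3, Cks1b, Pknox2 and Pcdh7, with log2 ratios between 1.32 and 1.36. Of the 15 named as higher, Aoc3, Cthrc1, Depdc5 and Hilpda were leading genes of subcluster 6 (17 iIRE and 3 control cells). Ctla2a, Ifit3 and Plce1 led subcluster 3 (24 and 6), and Pcdh7 and Pknox2 subcluster 9 (6 and 0). Others were leading genes of subclusters 5, 7 and 8. More cells of these kinds and more RNA per cell cannot be told apart in the summed levels.

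**Figure D5:**
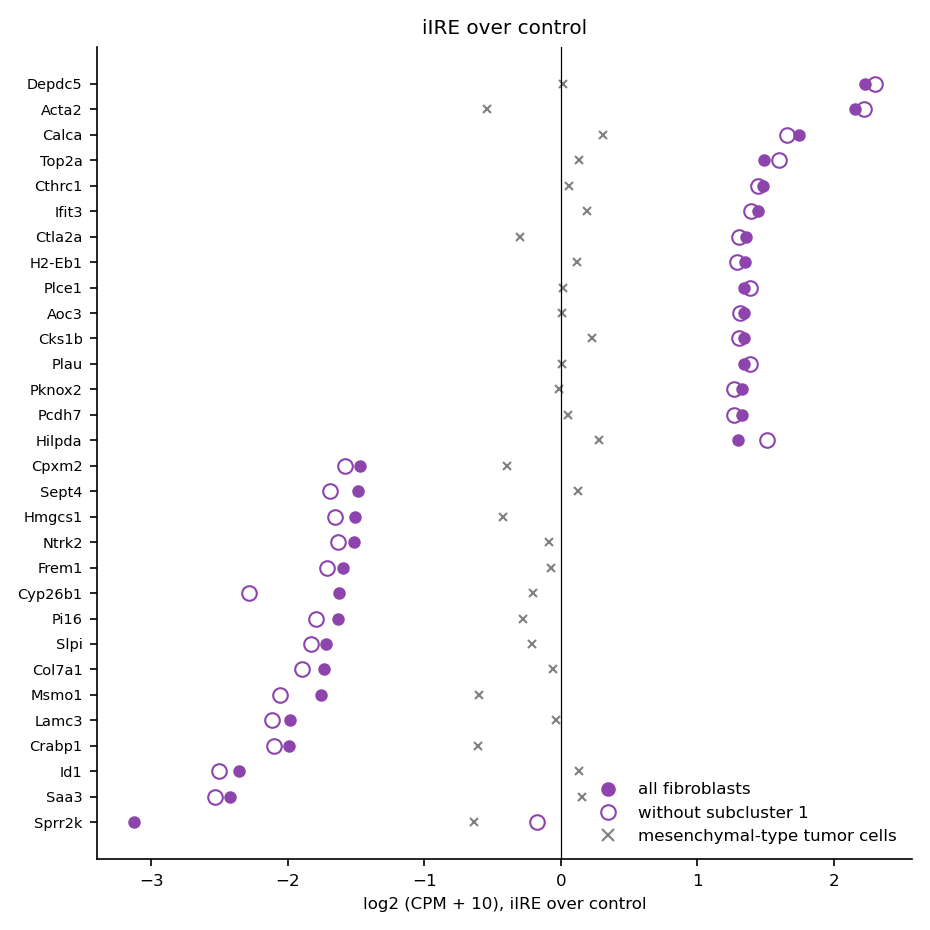
Log2 ratio of CPM + 10, iIRE over control, for the 15 genes named on each side, in all fibroblasts (filled), in the 165 outside subcluster 1 (open circles) and in mesenchymal-type tumor cells (crosses). Points are single ratios with no replicate error. Sprr2k is at -3.13 in all fibroblasts and at -0.18 without subcluster 1, and Acta2 is at 2.16 and 2.22 in fibroblasts and at -0.54 in the tumor cells.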

How the data were processed

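Tumors of both groups were dissociated and profiled by droplet single-cell RNA sequencing with a 10x Chromium 5′ kit. The authors aligned the reads to mm10 with Cell Ranger, which runs STAR, and deposited the UMI counts as a joint matrix of whole numbers per gene and cell, with the library encoded in the barcode ending. These counts are not normalized and include barcodes outside the cell limits of the study, so its doublet removal cannot be assumed. The fibroblasts and all gene lists were chosen with earlier results of these data known.

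Cells with at least 1000 UMIs, 200 genes and at most 5% mitochondrial UMIs were kept. Macrophages were cells with at least 0.5% of their UMIs from C1qa, C1qb and C1qc and the same Cdkn2a and keratin limits as the fibroblasts. Counts were summed per population and library and scaled to CPM. Ratios are log2 with 10 CPM added (1 CPM for the Y-linked sum) over genes with at least 50 UMIs. Called genes passed 1.5-fold between libraries, or 4-fold in both libraries between populations. Each comparison named 15 genes at either end of its log2 ratios (the smaller of both libraries' ratios between populations), with UMIs in at least 10% of the cells of the higher side, without mitochondrial, ribosomal, hemoglobin, immunoglobulin and T cell receptor genes, gene models and genes of the selection. Others were named as members of a list or after their values were seen. With 1 library per group no test was run. Subclusters came from 2000 variable genes without the Y-linked and selection genes, 10 principal components, 15 neighbors and Leiden resolution 1.0. Exact Poisson and Clopper-Pearson intervals were used, and the ratio and interval computations were checked on simulated data. Alternatives changed the limits, weighting, scaling (edgeR's TMM), added CPM, count minimum and folds. Leaving out subcluster 1, or each gene's cell with the most UMIs, was chosen after seeing the data. Some items are not reported here. Gene positions are from a GENCODE annotation of mm10. Software was Python 3.11.15, numpy 2.4.6, scipy 1.17.1, pandas 2.3.3, scanpy 1.11.5, leidenalg 0.10.2, matplotlib 3.10.9, R 4.3.3 and edgeR 4.0.16.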

Additional observations from a re-analysis of the deposited data

Results flagged for a closer look

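For 6 genes the iIRE over control ratio ran in opposite directions in fibroblasts and in another population, with each side past 1.5-fold. Each population was 1 library per group, so the difference between the ratios was not tested. Hmox1 stood at log2 0.85 in fibroblasts and -0.95 in macrophages. Tagln stood at 0.62 in fibroblasts and -0.69 in mesenchymal-type tumor cells. The MHC class II genes were the other 4, with H2-Ab1 at 1.11 in fibroblasts and -1.64 in macrophages, H2-Aa at 0.86 and -1.79, H2-Eb1 at 1.35 and -1.70, and Cd74 at 1.24 and -1.37. In fibroblasts the Cd74 UMIs came from 18 iIRE and 14 control cells, and those of Hmox1 from 38 and 30 cells.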

How the results depend on the processing

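No paired analysis was possible because each group has 1 library. Over the alternatives run, the log2 ratio of the fibroblast share, iIRE over control, ranged between 0.36 and 0.65, and that of the Y-linked genes over mesenchymal-type tumor cells between 4.76 and 5.10. Between libraries, the 253 higher and 246 lower genes became 411 and 396 with 1 CPM added, 435 and 397 at a minimum of 20 UMIs, 565 and 516 with no minimum, 1115 and 1120 at 1.2-fold and 47 and 53 at 2-fold. Weighting each cell equally gave 486 higher genes. Between populations, the 255 higher and 34 lower genes became 611 and 202 with 1 CPM added and 719 and 483 at 2-fold, and the lower genes were 22 with up to 10% mitochondrial UMIs, 13 with equal weights and 77 without subcluster 1. These 18 of 67 values moved by more than 1.5 times and 49 did not. Among named genes 874 values stayed, 205 moved and 1 reversed, Slpi, at log2 0.38 with collagens at 2% of UMIs or more. With 1 library a group the spread between mice is unknown, and genes under 50 UMIs in the fibroblasts were not read between libraries.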
